A study of Homo sapiens with 6 samples.

Results

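Paraspeckles are nuclear bodies of RNA and protein, and 9 genes of their core and its RNA-binding partners are described here out of the 28265 gene rows of each deposited table. The 9 were chosen by symbol, with earlier results of these data known: NONO, SFPQ and PSPC1, NEAT1, RBM14, TARDBP, MATR3, HNRNPK and EWSR1. All 9 passed the filter on low counts. The cells were LN229, a human glioblastoma line in long use, grown in DMEM with serum, and their total RNA was sequenced. One group of 3 libraries had the genotype label TRIM25 knockdown, with a hairpin RNA against TRIM25 by the series design, and the other 3 libraries had the genotype label WT. TRIM25 encodes an E3 ubiquitin ligase. The titles of the WT libraries bear the letters NC, and no label says whether those cells held a non-targeting hairpin. All libraries come from this single cell line, and the labels do not give separate cultures or clones. The p-values therefore measure the spread between these libraries, which may be technical.

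NEAT1 is the long noncoding RNA on which paraspeckles are built. It is made as a short form, which ends at a polyadenylation site, and as a long form that reads past that site and is needed to assemble the body. NONO, SFPQ and PSPC1 form the DBHS (Drosophila behaviour, human splicing) family: they pair as homodimers and heterodimers, coat NEAT1, and retain edited or repeat-bearing RNA in the nucleus. The remaining partners bind RNA as well, and some of them are known to act on the choice between the NEAT1 forms. Such retention and assembly happen at the level of protein and RNA form, which gene-level read counts do not measure.

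A pair of stretches of NEAT1 is shown because its forms differ at these places. The stretches hold letters of elements that proteins encoded by genes described below are known to bind. Binding to these stretches was not tested. They were read from the GENCODE v29 transcript NEAT1-202, the long form, on the plus strand of build GRCh38; the deposited counts were made on another build, so these coordinates belong to GENCODE alone. The first stretch, chr11:65426383-65426532, holds the end of the short form. Its capitals mark AATAAA, the polyadenylation signal nearest to the last annotated end of the 7 shorter NEAT1 transcripts, and TGTA, the element bound by the cleavage factor subunit that NUDT21 encodes. The second, chr11:65444254-65444331, lies in the long form only, and its capitals mark the longest TG repeat of NEAT1, with 10 bases on either side. TARDBP protein is known to bind UG repeats.
NEAT1 short form end: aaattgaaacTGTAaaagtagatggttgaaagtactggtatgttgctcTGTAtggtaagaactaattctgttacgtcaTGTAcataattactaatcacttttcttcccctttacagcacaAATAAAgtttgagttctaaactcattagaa
NEAT1 longest TG repeat: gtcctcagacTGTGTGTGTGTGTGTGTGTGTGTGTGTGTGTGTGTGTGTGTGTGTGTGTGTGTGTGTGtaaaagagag
Letters were searched on the transcript strand alone, with overlapping matches counted. The short form end held 3 TGTA; of the 151 windows of 150 bases that tile NEAT1-202, 8.61% held at least as many and 55.6% held at least 1. Runs of 6 or more TG units occurred at 5 places in NEAT1-202, with 0 of them before the end of the short form. Such a run occurred in 40 of the 227 GENCODE transcripts of at least 15000 bases (17.6%). A match of letters is a description and not a binding site.

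The check of the labelled gene went against the label. TRIM25 stood at 80.3, 80.0 and 88.5 CPM in the libraries labelled knockdown, against 35.3, 35.8 and 35.6 CPM in the WT libraries; CPM are counts per 1000000 counted reads, with library sizes scaled by the TMM method, and per-library values are always given in the order of replicates 1, 2 and 3. The log2 fold change was 1.22 ± 0.07 (SE; edgeR's quasi-likelihood test, Benjamini-Hochberg adjusted p = 3.23e-09), so TRIM25 mRNA was higher where it was labelled as knocked down. In the annotation, the TRIM25 exons hold 9501 bases. They share 132 of these with C17orf67 on the same strand and 80 with DGKE on the opposite strand. C17orf67 was not called, and DGKE was called lower. The groups are named by their labels, and no direction below can be read as an effect of losing TRIM25 mRNA. Total counts ran from 11349865 to 16404725 in the libraries labelled knockdown and from 13763400 to 15868470 in the WT libraries. Of the genes tested after the low-count filter, 3330 of 14315 were called, which means an adjusted p under 0.05. That number was 4941, 1868 and 2445 without labelled knockdown replicates 1, 2 and 3 in turn. It was 3096, 1826 and 1877 without WT replicates 1, 2 and 3 in turn. Labelled knockdown replicate 1 stood apart from the other libraries on the second principal component, which held 16.6% of the variance. Of 11 glial and glioblastoma markers 9 passed the filter, and GFAP and AQP4 did not. NES was called higher, and SOX2, OLIG2 and S100B were called lower, in the libraries labelled knockdown. The summed level of the 11 ran from 4954 to 5318 CPM in the libraries labelled knockdown and from 5395 to 5703 CPM in the WT libraries. Of 9 markers of other cell types 6 lay below the filter (PTPRC, CD3E, PECAM1, CDH5, EPCAM and RBFOX3), although none was at 0 in all libraries. CD68 was called higher and SNAP25 lower, and the summed level of the 9 ran from 80.4 to 93.7 CPM in the libraries labelled knockdown and from 73.3 to 76.9 CPM in the WT libraries. The part of these marker differences in the values below was not tested.

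The paraspeckle genes differed little between the groups. EWSR1, which was lower in the libraries labelled knockdown, was the only one of the 9 called, and 0 of 9 were called higher. A call in 1 of 9 is 11.1%, where 23.3% of all tested genes were called, 12.2% as higher and 11.0% as lower. At an unadjusted p under 0.05, edgeR gave 0 higher and 3 lower among the 9: NEAT1, TARDBP and EWSR1. The share of all tested genes at that unadjusted threshold was not counted, here or for the lists below. It cannot be under 23.3%, as an adjusted p is never below its unadjusted p. DESeq2, which called 18.0% of all tested genes, called 0 of the 9 higher and 1 lower, and limma-voom, which called 23.2%, 0 higher and 2 lower. In CPM the groups did not overlap for 5 of the 9 genes, with SFPQ higher and NONO, NEAT1, TARDBP and EWSR1 lower in all 3 libraries labelled knockdown; such a gap between groups occurred in 37.3% of all tested genes, 18.3% as higher and 19.0% as lower. The median log2 fold change was -0.05 over the 9 genes and -0.0038 over all tested genes. In bulk RNA, a lower value may come from fewer cells with the transcript or from less of it per cell, and these cannot be told apart.

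**Figure D1:**
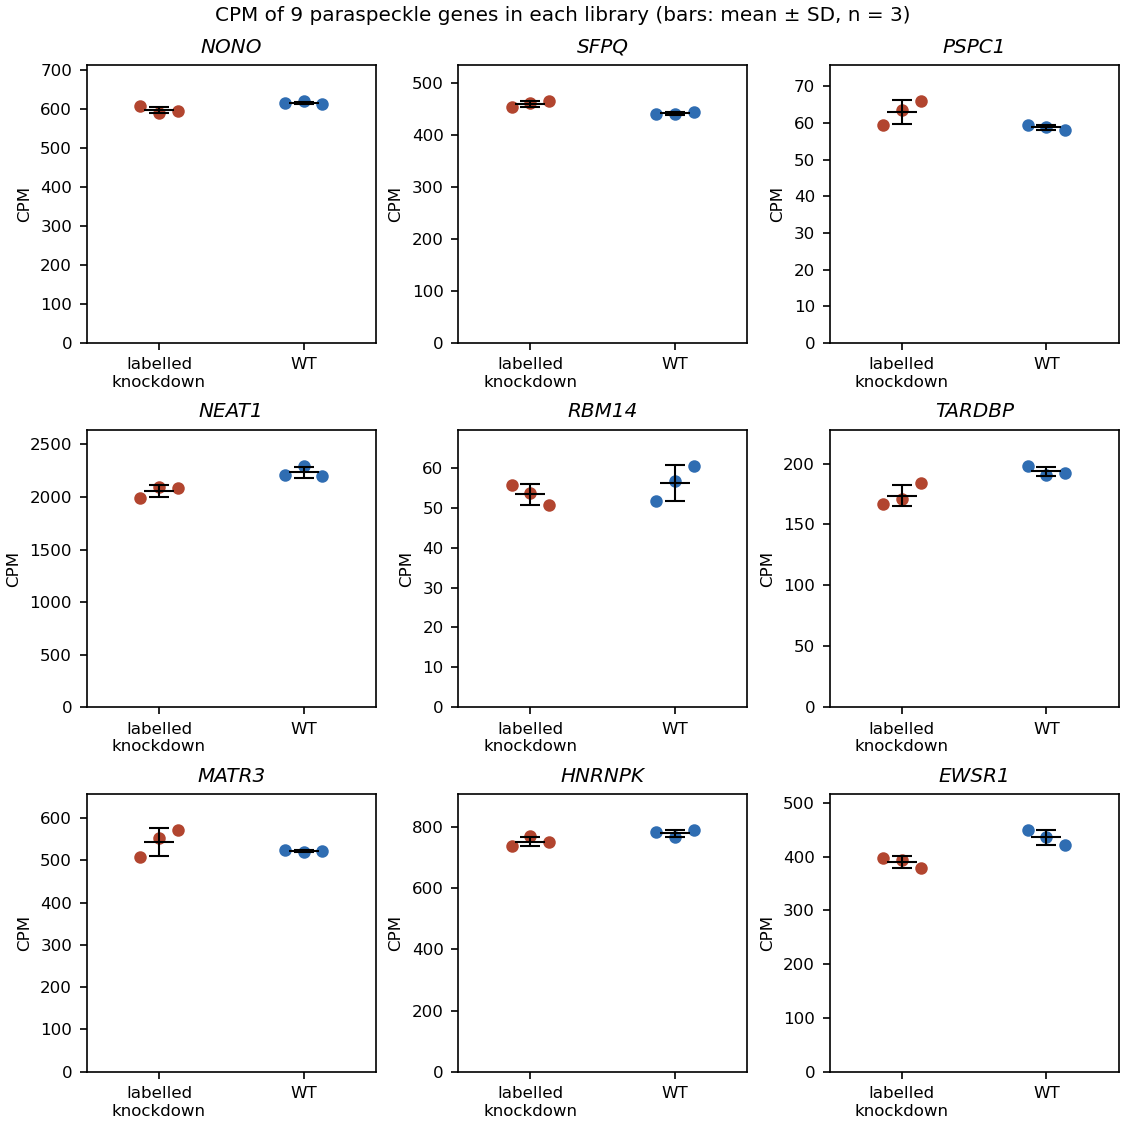
Level of each of the 9 paraspeckle genes in CPM (counts per 1000000, vertical axes from 0) in the 3 libraries labelled TRIM25 knockdown and the 3 WT libraries; points are libraries and bars the mean ± SD. NEAT1, at about 1987 to 2295 CPM, is the most abundant by reads, and the points of EWSR1, TARDBP, NEAT1 and NONO labelled knockdown lie below those of WT.

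NONO, the DBHS protein named in the series title, had 607, 591 and 596 CPM in the libraries labelled knockdown, against 617, 620 and 615 CPM in the WT libraries. All 3 libraries labelled knockdown lay below all 3 WT libraries, by a narrow gap. In TPM, in which counts are divided by gene length and rescaled to 1 sum in every library, the groups overlapped, at 525, 528 and 544 TPM in the libraries labelled knockdown and 543, 529 and 520 TPM in the WT libraries. The fitted difference was -3.08%, with a 95% interval from -9.64% to 3.95% (-0.05 ± 0.05 on the log2 scale, SE; adjusted p = 0.532 in edgeR). The coefficient of variation was 1.43% in the libraries labelled knockdown and 0.437% in the WT libraries, where counting error alone gives 1.01% to 1.22% per library.

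SFPQ, the largest DBHS protein, is a splicing factor that also recruits corepressors. It had 454, 462 and 464 CPM in the libraries labelled knockdown, against 441, 439 and 445 CPM in the WT libraries. All 3 libraries labelled knockdown stood above all 3 WT libraries, also in TPM. Its log2 fold change was 0.06 ± 0.05 (SE; 95% interval -0.04 to 0.16; edgeR adjusted p = 0.412).

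PSPC1, the least abundant DBHS protein gene and the one whose protein first marked these bodies, had 59.5, 63.5 and 65.9 CPM in the libraries labelled knockdown, against 59.5, 58.9 and 58.1 CPM in the WT libraries. Labelled knockdown replicate 1 sat among the WT libraries and the other 2 lay above them, so the groups overlapped. Its log2 fold change was 0.10 ± 0.07 (SE; 95% interval -0.04 to 0.24; edgeR adjusted p = 0.299). Without labelled knockdown replicate 1 it was 0.14 (adjusted p = 0.0872), and without labelled knockdown replicate 3 it was 0.06 (adjusted p = 0.597). These are the ends of its range over the 6 fits without a library.

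Among the 3 DBHS mRNAs the balance was led by NONO. Per length, NONO made 60.2%, 59.0% and 59.1% of the summed TPM of the family in the libraries labelled knockdown, against 61.2%, 61.4% and 61.0% in the WT libraries. SFPQ made 36.4%, 37.4% and 37.2% in the libraries labelled knockdown and 35.4%, 35.2% and 35.7% in the WT libraries. PSPC1 made between 3.36% and 3.72% in the libraries labelled knockdown and between 3.29% and 3.37% in the WT libraries. The summed TPM of the family overlapped, at 871, 895 and 922 TPM in the libraries labelled knockdown and 887, 862 and 852 TPM in the WT libraries.

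Ratios within a library need no scaling between libraries, and 5 of them were compared. SFPQ over NONO stood at 0.605, 0.633 and 0.630 in the libraries labelled knockdown, against 0.578, 0.573 and 0.586 in the WT libraries. The groups did not overlap, and the mean log2 ratio was higher by 0.10 in the libraries labelled knockdown. PSPC1 over NONO stood at 0.0558, 0.0613 and 0.0630 in the libraries labelled knockdown, against 0.0550, 0.0542 and 0.0539 in the WT libraries, a log2 difference of 0.14 without overlap. PSPC1 over SFPQ overlapped, with a log2 difference of 0.04 (two-sided exact permutation p = 0.4). It was 0.07 without labelled knockdown replicate 1, when the groups no longer overlapped, 0.01 without labelled knockdown replicate 3 and 0.02 without WT replicate 3. These ratios carry no correction for the trend of fold change with gene length described below. With offsets for length and GC content, the log2 fold changes of the single genes lay closer together, at -0.017 for NONO, 0.0061 for SFPQ and 0.015 for PSPC1.

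NEAT1 over the geometric mean of the DBHS genes stood at 1.43, 1.48 and 1.45 in the libraries labelled knockdown, against 1.60, 1.67 and 1.60 in the WT libraries. EWSR1 over the same mean stood at 2.43, 2.36 and 2.23 in the libraries labelled knockdown, against 2.75, 2.68 and 2.60 in the WT libraries. Both ratios were lower in every library labelled knockdown than in every WT library, by 0.16 and 0.20 on the log2 scale. The 4 ratios whose groups did not overlap each had a two-sided exact permutation p of 0.1, the smallest that the 20 splits of 3 against 3 allow, and 0.125 after Benjamini-Hochberg adjustment over the 5. With 3 libraries in each group, the exact test cannot reach 0.05 for a single ratio.

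**Figure D2:**
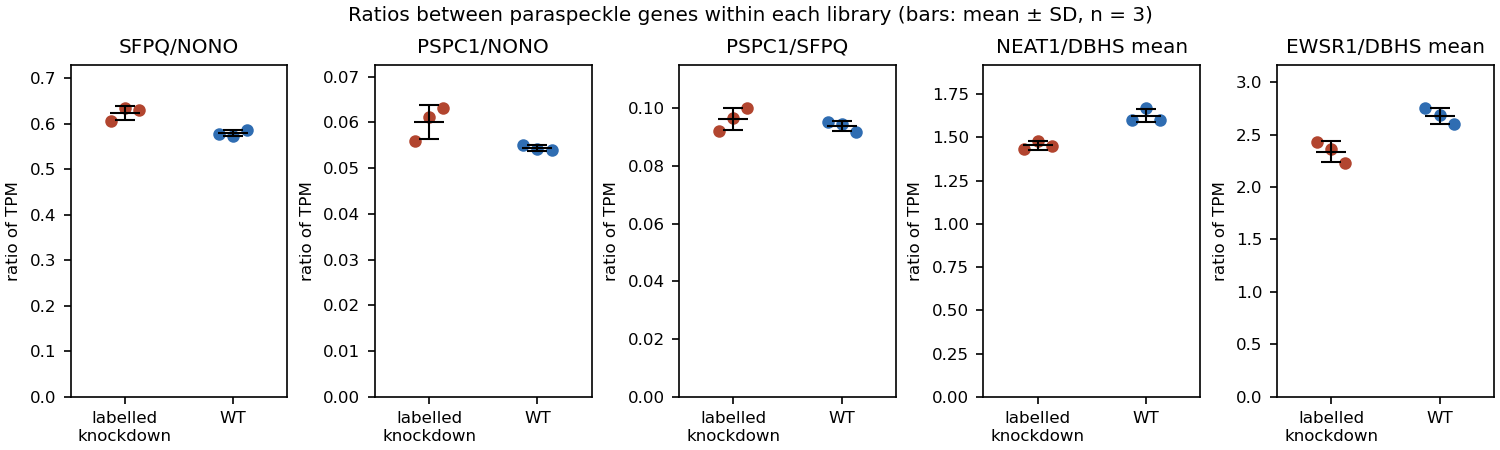
Ratio of TPM between paraspeckle genes within each library (vertical axes from 0), for 3 libraries labelled TRIM25 knockdown and 3 WT libraries; points are libraries, bars the mean ± SD, and DBHS mean is the geometric mean of NONO, SFPQ and PSPC1. SFPQ/NONO runs from 0.605 to 0.633 in the libraries labelled knockdown and from 0.573 to 0.586 in the WT libraries, while PSPC1/SFPQ overlaps.

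NEAT1 took 0.198%, 0.208% and 0.207% of all counts in the libraries labelled knockdown, against 0.222%, 0.230% and 0.221% in the WT libraries. In CPM this was 1987, 2091 and 2081 in the libraries labelled knockdown and 2212, 2295 and 2199 in the WT libraries. Every library labelled knockdown lay below every WT library, with labelled knockdown replicate 1 the lowest of all. In TPM the groups overlapped, at 243, 265 and 269 TPM in the libraries labelled knockdown and 276, 277 and 263 TPM in the WT libraries. The fitted difference was -8.16% (95% interval -14.0% to -1.97%; log2 fold change -0.12 ± 0.04, SE), which missed the threshold in edgeR's quasi-likelihood test (adjusted p = 0.0554). It passed with total counts as the only scaling (adjusted p = 0.0404) and with limma-voom (0.0470), and missed with DESeq2 (0.123). Without labelled knockdown replicate 1 the log2 fold change was -0.09 (adjusted p = 0.104).

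The length of NEAT1 bears on how its value reads. The tables divide it by 22741 bases, close to the 22743 bases of the long form NEAT1-202, against a median of 3592 bases over tested genes, and reads of the short form and of the 5′ end of the long form cannot be told apart in a gene count. Fold change followed length across genes (Spearman's rho 0.30; genes are not replicates). In 5 bins of rising length, the median log2 fold change ran -0.11, -0.05, -0.0093, 0.05 and 0.11, shortest to longest. Among the 215 other tested genes of at least 15000 bases, the median was 0.13, 68 were called higher and 11 lower, and 13.5% lay below NEAT1. These lengths are those by which the deposited data divide each gene, and the transcripts present in the cells may be shorter.

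NEAT1 and the long genes were also compared library by library. As log2 CPM minus the mean of all 6 libraries, NEAT1 stood at -0.11, -0.03 and -0.04 in the libraries labelled knockdown, against 0.05, 0.10 and 0.04 in the WT libraries. The median of the long genes stood at 0.0037, 0.07 and 0.14 in the libraries labelled knockdown, against 0.01, -0.08 and -0.10 in the WT libraries. Over all tested genes, Spearman's rho of this deviation with length was -0.12, 0.25 and 0.41 in the libraries labelled knockdown. In the WT libraries it was 0.05, -0.29 and -0.39. Both the median and rho overlapped between the groups, as labelled knockdown replicate 1 lay below WT replicate 1. NEAT1 lay below the long genes' median in each library labelled knockdown and above it in each WT library. With an offset for length fitted in each library, NEAT1 had a difference of -0.30 on the log2 scale (adjusted p = 2.40e-05 in edgeR), and with length and GC content one of -0.31 (5.16e-06). NEAT1 is longer than all but 54 of the tested genes, so these values depend on how the length curve runs at its end. The offset and the set of long genes also take NEAT1 at 22741 bases. If most of its reads came from the short form, that length would not apply to them, and the offset would be too large. The share of the forms was not measured. NEAT1 also shares 100 bases of exon with MIR612, which had 0 counts in every library.

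**Figure D3:**
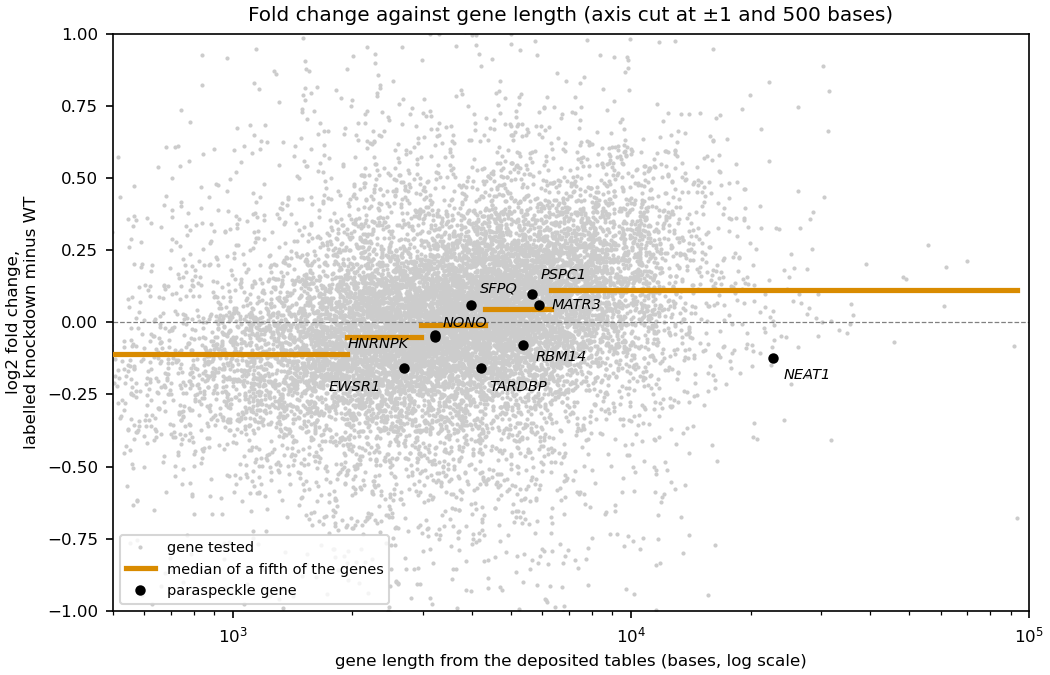
Log2 fold change (labelled knockdown minus WT, vertical axis) against gene length from the deposited tables (bases, log scale), with each tested gene in grey, the median of each of 5 length bins as a bar and the 9 paraspeckle genes in black. The bars climb from -0.11 to 0.11 with length, and NEAT1, at 22741 bases and -0.12, lies below the bar of its bin.

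**Figure D4:**
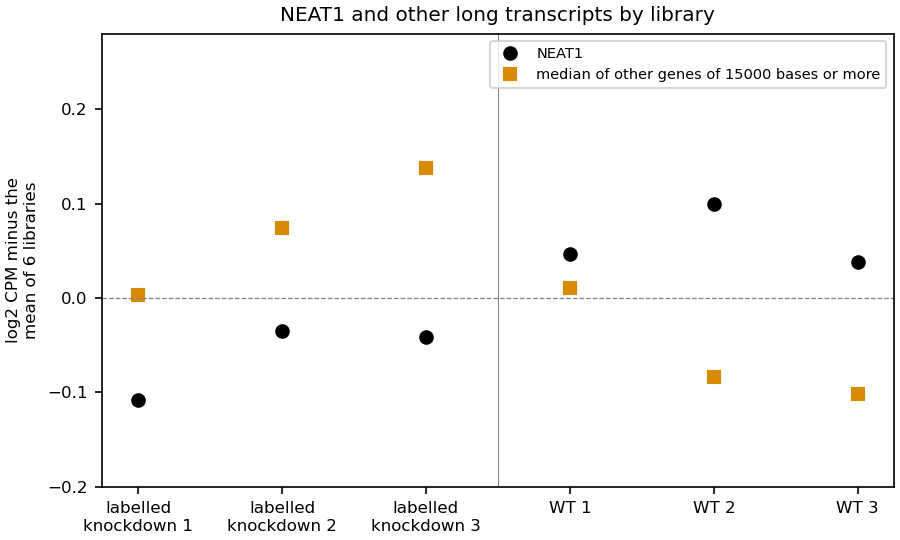
Log2 CPM minus the mean of the 6 libraries (vertical axis) for NEAT1 (circles) and the median of 215 other genes of at least 15000 bases (squares), by library. NEAT1 lies below the squares in the 3 libraries labelled knockdown and above them in the 3 WT libraries.

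RBM14, a coactivator whose protein is needed to assemble paraspeckles, had 55.8, 53.8 and 50.6 CPM in the libraries labelled knockdown, against 51.6, 56.8 and 60.5 CPM in the WT libraries. The groups overlapped between 51.6 and 55.8 CPM. For RBM14 the log2 fold change was -0.08 ± 0.07 (SE; 95% interval -0.23 to 0.08; edgeR adjusted p = 0.483). It was -0.14 without WT replicate 1, -0.04 without labelled knockdown replicate 3 and -0.02 without WT replicate 3, and -0.13 with the length offset. RBM14 shares 432 bases of exon on the same strand with the readthrough gene RBM14-RBM4, which lay below the filter.

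TARDBP encodes TDP-43, an RNA-binding protein known to favour use of the short form's polyadenylation site. It had 167, 171 and 184 CPM in the libraries labelled knockdown, against 198, 191 and 193 CPM in the WT libraries. All 3 libraries labelled knockdown lay below the WT libraries, with replicate 3 closest to them. The log2 fold change was -0.16 ± 0.06 (SE; 95% interval -0.28 to -0.03), and it missed the threshold (edgeR adjusted p = 0.0601). Without labelled knockdown replicate 3 it was -0.20 and passed (adjusted p = 0.0290), the only pass in the 6 fits without a library. Over those 6 fits the edgeR adjusted p reached 0.215. Of all 15 alternatives, TARDBP passed in 5. In TPM the groups overlapped. In GENCODE, TARDBP shares 1760 bases of exon on the same strand with a gene model that has no row in the tables, so reads of either may be counted here.

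HNRNPK, whose protein favours the long form by competing with the cleavage factor at the short form's end, had 738, 770 and 752 CPM in the libraries labelled knockdown, against 783, 768 and 789 CPM in the WT libraries. Labelled knockdown replicate 2 reached above WT replicate 2, so the groups overlapped. The log2 fold change was -0.05 ± 0.05 (SE; 95% interval -0.15 to 0.05; edgeR adjusted p = 0.469). The gene holds MIR7-1 in 110 bases of its exons.

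MATR3, a nuclear matrix protein that binds RNA and joins NONO and SFPQ in retaining edited RNA, had 507, 554 and 571 CPM in the libraries labelled knockdown, against 525, 521 and 521 CPM in the WT libraries. The libraries labelled knockdown spread to both sides of the WT libraries, with a coefficient of variation of 6.05%, against 0.400% in the WT libraries. The log2 fold change was 0.06 ± 0.05 (SE; 95% interval -0.05 to 0.17; edgeR adjusted p = 0.457). Its sign turned with the length offset, to -0.0023. MATR3 shares 626 bases of exon on the same strand with SNHG4, whose log2 fold change was -0.15 (adjusted p = 0.153).

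EWSR1, an RNA-binding protein related to TAF15, had 398, 394 and 378 CPM in the libraries labelled knockdown, against 449, 437 and 422 CPM in the WT libraries. The groups did not overlap, in CPM or in TPM. EWSR1 fell by 10.5% (95% interval -17.0% to -3.38%; -0.16 ± 0.05 on the log2 scale, SE; adjusted p = 0.0351 in edgeR). The call held without labelled knockdown replicate 1 (adjusted p = 0.0132) and was lost without any other library. The adjusted p was then 0.113 without labelled knockdown replicate 2, 0.102 without labelled knockdown replicate 3, 0.103 without WT replicate 1, 0.131 without WT replicate 2 and 0.0645 without WT replicate 3. It was also lost with no filter on low counts (0.0523). With length and GC content the difference was -0.10 (adjusted p = 0.0375 in edgeR). The median absolute log2 fold change over all tested genes was 0.15, close to the size seen here. EWSR1 shares 121 bases of exon with RHBDD3 on the opposite strand, and the strand setting of the counting is not given in the sources used here.

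Levels between genes were compared per length, as TPM over all 6 libraries. HNRNPK led at 670 ± 21.4 TPM, followed by NONO at 532 ± 10.0 TPM, EWSR1 at 432 ± 23.6 TPM and SFPQ at 319 ± 16.1 TPM (SD, n = 6). NEAT1 at 265 ± 12.5 TPM and MATR3 at 255 ± 18.6 TPM came next and overlapped. NEAT1 stood above MATR3 in 4 of 6 libraries, and below it in labelled knockdown replicates 2 and 3. TARDBP followed at 123 ± 8.28 TPM. PSPC1 at 30.4 ± 2.42 TPM and RBM14 at 28.8 ± 1.20 TPM ended the order and overlapped, with PSPC1 above in 4 of 6 libraries and below in WT replicates 2 and 3. No other neighbours in this order overlapped between libraries. The 9 genes ran from a level above that of 98.7% of tested genes, for HNRNPK, to one above that of 58.5%, for RBM14. If most NEAT1 reads came from the short form, its level per length would be understated; the share of the forms was not measured. Raw counts behind these levels ran from 609 for RBM14 to 35168 for NEAT1, so that counting error alone is at most 4.05% in any library.

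The wider set of paraspeckle proteins and NEAT1 3′ end factors held 31 further genes, of which 28 were tested, and RUNX3, BCL11A and CELF6 lay below the filter. Of the 28, 3 were called higher in the libraries labelled knockdown and 0 lower, which is 10.7% against 23.3% of all tested genes. Their log2 fold change was positive in 18 and negative in 10. In CPM the groups did not overlap for 11 of the 28, 5 as higher and 6 as lower. Such a gap occurred in 37.3% of all tested genes. At an unadjusted p under 0.05, edgeR gave 3 higher and 2 lower; DESeq2 called 2 higher and 0 lower, and limma-voom 3 and 0. Their median log2 fold change was 0.04, beside -0.0038 for all tested genes.

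NUDT21 encodes the cleavage factor subunit known to bind TGTA, and binding to the stretch printed above was not tested. NUDT21 had 208, 218 and 217 CPM in the libraries labelled knockdown, against 183, 181 and 171 CPM in the WT libraries. It rose without overlap (0.26 ± 0.06 on the log2 scale, SE; adjusted p = 0.0030 in edgeR), and kept its call without each library in turn (adjusted p from 0.000155 to 0.0303). Its partners in the cleavage factor, CPSF6 and CPSF7, had log2 fold changes of 0.10 ± 0.06 and 0.06 ± 0.06 (SE; edgeR adjusted p = 0.211 and 0.499). CPSF6 lay higher in all 3 libraries labelled knockdown, at 169, 172 and 177 CPM, against 160, 160 and 165 CPM in the WT libraries. Such a gap on the higher side occurred in 18.3% of all tested genes. CPSF6 has 6695 bases, and its log2 fold change was 0.016 with the length offset and -0.0197 with length and GC content.

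MEX3A, an RNA-binding protein with KH domains, had 34.9, 31.5 and 33.3 CPM in the libraries labelled knockdown, against 25.8, 22.8 and 23.0 CPM in the WT libraries. It rose by 0.48 ± 0.08 on the log2 scale (SE; edgeR adjusted p = 0.000521), the largest difference of the 28. HNRNPA1, a splicing factor, had 1523, 1532 and 1508 CPM in the libraries labelled knockdown, against 1356, 1407 and 1399 CPM in the WT libraries. It rose by 0.13 ± 0.04 on the log2 scale (SE; edgeR adjusted p = 0.0391), a call held without labelled knockdown replicate 1 (adjusted p = 0.0199). The HNRNPA1 call was lost without labelled knockdown replicates 2 (0.149) or 3 (0.0513) and without WT replicates 1 (0.101), 2 (0.108) or 3 (0.113), and with DESeq2 (0.0554) or total counts (0.0567). TAF15, the relative of EWSR1, was not called, with a log2 fold change of -0.08 ± 0.05 (SE; edgeR adjusted p = 0.319).

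**Figure D5:**
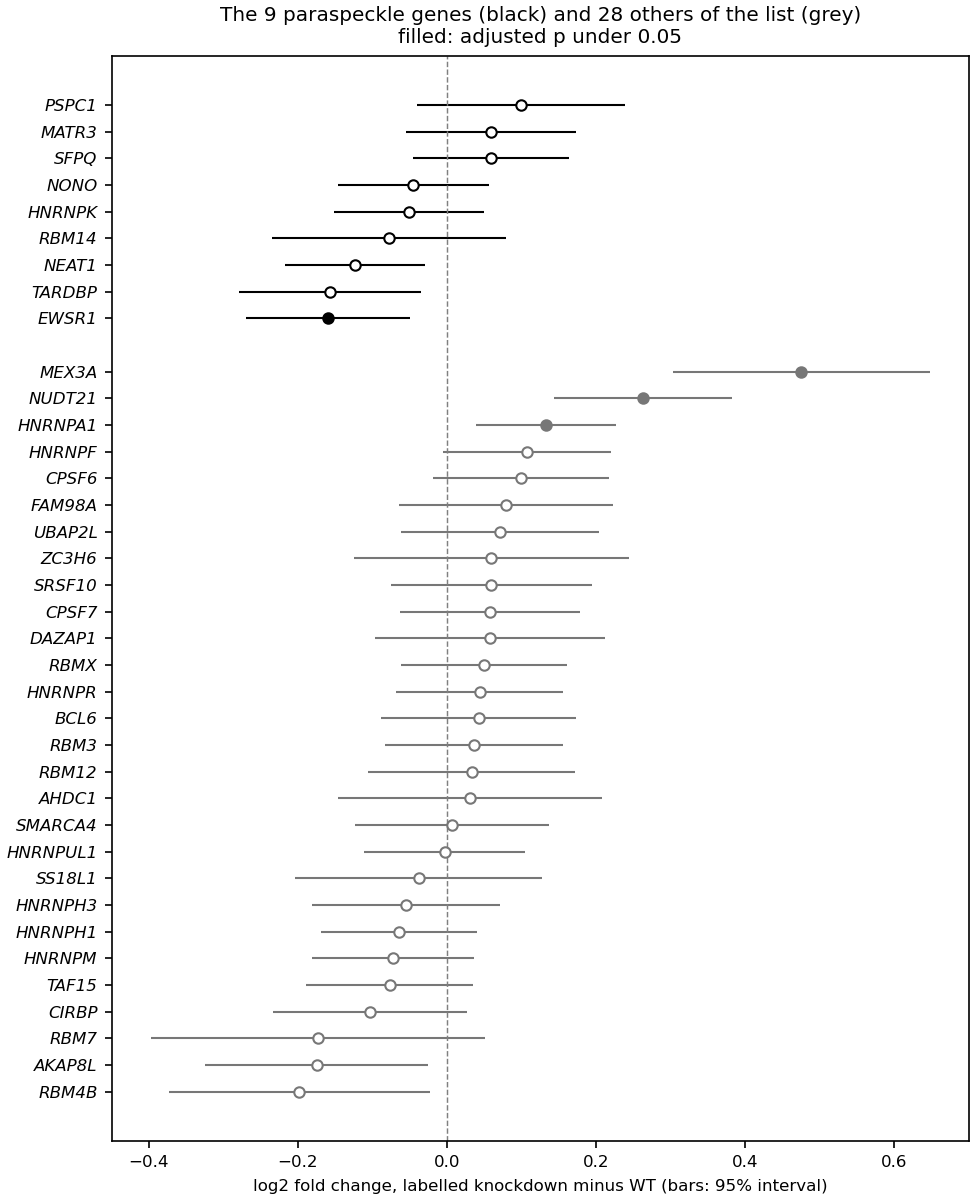
Log2 fold change (labelled knockdown minus WT, horizontal axis) of the 9 paraspeckle genes (black) and 28 other tested paraspeckle genes (grey); bars are 95% intervals, and filled points have an edgeR adjusted p under 0.05. EWSR1 is the only filled black point, at -0.16, and MEX3A, NUDT21 and HNRNPA1 are the filled grey ones, at 0.48, 0.26 and 0.13.

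Known protein partners of NONO and SFPQ were the next list, with 20 of 21 symbols measured and 19 tested: 2 were called higher and 4 lower. This is 31.6% of them, where 23.3% of all tested genes were called, 12.2% as higher and 11.0% as lower. At an unadjusted p under 0.05, edgeR gave 3 higher and 4 lower, and DESeq2 and limma-voom each called 2 higher and 4 lower. The median log2 fold change of the list was 0.016. PRKDC, the DNA repair kinase subunit, rose by 0.45 ± 0.08 on the log2 scale (SE; edgeR adjusted p = 0.00039), with 744, 841 and 907 CPM in the libraries labelled knockdown, against 679, 597 and 549 CPM in the WT libraries; at 13456 bases it too is a long transcript, and its log2 fold change was 0.29 with the length offset and 0.25 with length and GC content, called in both. HDAC1, a histone deacetylase, fell by 0.30 ± 0.06 on the log2 scale (SE; adjusted p = 0.0011 in edgeR), and HEXIM1, an RNA-bound inhibitor of transcription elongation, fell by 0.28 ± 0.06 (adjusted p = 0.0026 in edgeR). The coactivator CRTC3 (0.26), the U1 protein SNRPA (-0.22) and the corepressor CTBP1 (-0.22) were called too, but each lost its call in 4 of the 6 fits without a library. The adjusted p of these 3 reached 0.142, 0.148 and 0.180 in those fits. SNRPA also lost its call with the length offset (-0.12, adjusted p = 0.122 in edgeR) and with length and GC content (-0.08, 0.201), where CTBP1 stood at -0.13 and was called.

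Of a list of 10 transcription factors and regulators linked to NEAT1, all tested, 2 were called higher and 0 lower. This count is near the background of 23.3% of all tested genes called, 12.2% as higher, and the median log2 fold change was 0.04. At an unadjusted p under 0.05, edgeR gave 3 higher and 0 lower, and DESeq2 and limma-voom each called 2 higher and 0 lower. HIF1A, the hypoxia factor, had 839, 903 and 942 CPM in the libraries labelled knockdown, against 730, 702 and 677 CPM in the WT libraries, and rose by 0.35 ± 0.05 on the log2 scale (SE; edgeR adjusted p = 0.000206). BRCA1 rose by 0.49 ± 0.09 (SE; adjusted p = 0.0010 in edgeR). EPAS1, the HIF2A gene, known to drive NEAT1 under low oxygen, had a log2 fold change of 0.07 ± 0.06 (SE; edgeR adjusted p = 0.432).

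Of 6 measured RNAs reported as held in or regulated through paraspeckles 3 were tested (CXCL8, NICN1 and DDX58), and 0 were called. Of all tested genes 23.3% were called, and 3 genes are too few to differ from that share. For these 3, edgeR at an unadjusted p under 0.05, DESeq2 and limma-voom gave 0 as well. CXCL8, which NEAT1 is known to release from repression by SFPQ, stood 0.12 higher on the log2 scale (95% interval -0.0002 to 0.24; edgeR adjusted p = 0.140).

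Other long noncoding RNAs were set beside NEAT1 because they too are counted from total RNA. Of 10 tested, 2 were called higher and 3 lower. This is 50.0%, where 23.3% of all tested genes were called, 12.2% as higher and 11.0% as lower, and the median log2 fold change was 0.017. At an unadjusted p under 0.05, edgeR gave 3 higher and 3 lower; DESeq2 called 2 higher and 2 lower, and limma-voom 2 and 3. MALAT1, the neighbour of NEAT1 on its chromosome and a nuclear speckle RNA, had 2229, 2323 and 2214 CPM in the libraries labelled knockdown, against 2531, 3049 and 2755 CPM in the WT libraries. It fell by 0.30 ± 0.06 on the log2 scale (SE; edgeR adjusted p = 0.0011), and kept its call without each library in turn. MIR22HG fell by 0.35 ± 0.09 (SE; edgeR adjusted p = 0.0074), and also kept its call in those 6 fits. TUG1 (0.28), GAS5 (0.20) and MIR17HG (-0.46) were called, but lost their calls in 4, 4 and 5 of the 6 fits without a library, and MIR17HG with DESeq2 as well (adjusted p = 0.0878). With length and GC content TUG1 stood at 0.12, GAS5 at 0.30 and MALAT1 at -0.48, each called. Whether NEAT1 and MALAT1 differ in response was not tested.

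The genes whose pattern over the 6 libraries lay nearest to that of a core gene were taken by the root mean square difference of log2 CPM deviations, among the 6835 other tested genes whose log2 CPM averaged 5 or more. For NONO these were BRD2, PFKM and NIPSNAP1, at 0.013 to 0.016, where the median candidate lay at 0.101. For SFPQ they were BICD2, ST13 and SERPINA5, at 0.0085 to 0.014 (median 0.102). The nearest to PSPC1 were ZNF740, TMOD3 and EGLN1, at 0.0070 to 0.010 (median 0.111). HSP90AA1, TXNDC9 and CDC42 were nearest to NEAT1, at 0.012 to 0.014 (median 0.118). With 6 libraries and so many candidates, near matches are a description of these libraries.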

How the data were processed

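RNA of 6 LN229 libraries was analysed, 3 labelled TRIM25 knockdown and 3 labelled WT by the genotype label, with replicate numbers from the titles. Per the labels' protocols, a stranded kit for total RNA was used. HISAT2, Trim Galore, MultiQC, FastQC and hg19 are named in the submitters' processing notes; how reads were counted, with which strand setting and annotation, is not given in the sources used here. The authors' deposited counts are whole reads per gene, without scaling, per the file headers. The authors' FPKM column is the count over gene length and total count: the implied lengths were whole bases (tolerance 0.001) in each of 21754 genes with reads. The deposited TPM column is that FPKM rescaled to sum to 1000000 per library. Columns of other samples numbered 0.

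Counts were tested in R 4.3.3 with edgeR 4.0.16 (filterByExpr, TMM factors from 0.995 to 1.00, glmQLFit and glmQLFTest, group as the only term). The 14315 tested genes held 99.9% of counts, and adjusted p-values are Benjamini-Hochberg over all of them. SE is the log2 fold change over the square root of F, and 95% intervals use the fit's degrees of freedom. Ratios used two-sided exact permutation tests. The percentages given as counting error come from the counts alone and leave out other spread between libraries. No pair of libraries in a group was a copy (chi-square per degree of freedom from 1.95 to 8.54). On simulated data for this comparison, run on 14196 genes, the fit called 43 of 100 genes changed 1.25-fold, 77 of 100 changed 1.5-fold and 2 unchanged genes.

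Alternatives were other scalings, DESeq2 1.42.0, limma-voom (limma 3.58.1), no filter, a replicate block, offsets for length and for length with GC content (lowess span 0.3, GC for 95.3% of tested genes from GENCODE v29), and leaving out each library. The 9 genes and all lists were chosen with earlier results of these data known, so patterns in them are not independent support. Named genes were the 9, TRIM25, NUDT21, CPSF6, CPSF7, TAF15 and MALAT1, up to 4 called genes per direction in each other list by smallest adjusted p, and the 3 genes nearest in pattern to NONO, SFPQ, PSPC1 and NEAT1; genes named as below the filter, sharing exons, or untested in direction (EPAS1, CXCL8, NICN1, DDX58) were added after their values were seen. Shared exons were counted in GENCODE v29. Sequences are from that release, and no protein sequence was used here. Some genes of the lists are not reported here, and list counts leave them out.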

Additional observations from a re-analysis of the deposited data

How the results depend on the processing

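Across the 15 alternatives (scalings, tools, filter, replicate block, offsets and leaving out 1 library), NONO, SFPQ, PSPC1, RBM14 and HNRNPK kept their direction and were not called in any, but their sizes moved: NONO ranged from -0.06 to -0.02, SFPQ from 0.0061 to 0.08, PSPC1 from 0.015 to 0.14, RBM14 from -0.14 to -0.02 and HNRNPK from -0.07 to -0.03. All genes called numbered 3330, 1891 with the replicate block, and 1826 to 4941 with 1 library left out. Of the 9 paraspeckle genes, 1 was called, beside 23.3% of all tested genes. The number, with the share of all genes called in the same fit, was 3 with total counts only (23.4%), 2 with limma-voom (23.2%), 0 without a filter (16.8%), 0 with the replicate block (13.2%), 3 with the length offset (25.7%), 3 with length and GC (31.4%), 2 with block and length offset (19.6%), and 0 to 1 with 1 library left out (12.5% to 33.8%). At an unadjusted p under 0.05 edgeR gave 3 of the 9, and the share of all genes at that threshold was not counted. Of the other paraspeckle genes, 6 of 28 were called with length and GC, against 3, while the calls over all genes numbered 4498, against 3330. NEAT1 passed with total counts only (-0.13), limma-voom (-0.12), length (-0.30), length and GC (-0.31) and block with length (-0.29). TARDBP passed with total counts only (-0.17), length (-0.17), length and GC (-0.22) and block with length (-0.18), and its range with 1 library left out was -0.20 to -0.12. EWSR1 was not called without a filter (-0.15), with the block (-0.16) or with block and length (-0.12), and ranged from -0.18 to -0.14 with 1 library left out. Signs turned for MATR3 with length (-0.0023), length and GC (-0.0450) and block with length (-0.0029), and for CPSF6 with length and GC (-0.0197). The order of levels held 3 of 9 places when CPM was not divided by length, and 9 of 9 without each library. With the replicate block, HNRNPA1 (adjusted p = 0.147), GAS5 (0.120), SNRPA (0.104), CTBP1 (0.104), CRTC3 (0.0892), MIR17HG (0.0816) and TUG1 (0.0632) missed the edgeR threshold too. The cause of these changes was not tested.

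The replicate numbers did not pair the libraries: deviations of same-numbered libraries correlated at -0.19, 0.0082 and -0.22, and libraries correlated better with another number. The ratios kept their direction in every comparison without a library. With the replicate block their differences are the same by construction, because each number has a library in both groups. An exact test of 3 pairs cannot go below p = 0.25. A fit with 5 libraries has fewer samples; of the calls lost there, some came with smaller differences (SNRPA -0.15 without labelled knockdown replicate 3, against -0.22) and others with larger ones (EWSR1 -0.18 without WT replicate 3, against -0.16). With 3 libraries a group, differences of about 1.25-fold were often missed in the simulated data, so a gene not called is not shown to be equal between groups. That recovery was not measured for the 9 genes. In the main fit, none of their 95% intervals reached a 1.25-fold difference in either direction. The lowest bound was 0.824 of the WT level (TARDBP) and the highest was 1.18 (PSPC1). This holds for the main fit only, as the offsets moved NEAT1 to -0.30 and -0.31 on the log2 scale. Total counts of 11349865 to 16404725 per library do not limit the 9 genes, whose spread between libraries in most cases exceeds counting error. The forms of NEAT1 and the protein levels were not measured.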
